A study of Homo sapiens with 2 samples.

Results

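Receptor tyrosine kinases are membrane proteins that bind a growth factor outside the cell and phosphorylate tyrosines inside it, which starts RAS, PI3K and STAT signalling. In lung cancer several of them drive growth through mutation, amplification, gene fusion or bypass of a blocked receptor. The RNAs of 10 such receptors were examined for binding by HNRNPC, an hnRNP protein of the nucleus known to bind runs of U in nascent transcripts. The genes were EGFR, ERBB2, ERBB3, ERBB4, MET, IGF1R, INSR, FGFR1, AXL and ALK, and a peak was counted for a gene when its summit lay inside the gene's RefSeq span on GRCh38.p14. By this rule 80 of the 23148 peaks in the list (0.346%) belonged to the 10 receptors.

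RNA immunoprecipitation followed by sequencing (RIP-seq) gave the peaks, and the cells were A549 (labelled NCI-A549), a non-small cell lung cancer line for which the labels name no genetic change and no drug. The series has 2 samples of these cells, 1 library immunoprecipitated with an anti-HNRNPC antibody (IP) and 1 input library, and the peak list of the IP library is described here. With 1 library per group there is no replicate error and no test between samples, and the labels do not say from how many cultures the cells came. Each peak's fold (enrichment over the control at its summit) and q come from the authors' peak calling, and they are compared only among peaks of this list. Of 5 epithelial marker genes 1 carried a peak, the cadherin gene CDH1, while EPCAM, KRT8, KRT18 and KRT19 did not, nor did 5 alveolar type 2, 4 blood, 4 fibroblast and 3 endothelial markers. A peak list does not measure expression, so these absences do not tell which RNAs were present, and fewer cells of a type cannot be told apart from less RNA per cell.

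HNRNPC peaks lay in 5 of the 10 receptors (50%, 95% exact Clopper-Pearson interval 18.7 to 81.3%). The 10 genes were chosen with earlier results of these data known and are no random sample. The interval is therefore not read against the share of other genes. IGF1R, the receptor for insulin-like growth factors, had 26 peaks. EGFR, the receptor for epidermal growth factor and its relatives, had 22, and MET, the receptor for hepatocyte growth factor, had 20. AXL, the receptor for GAS6 and a known route of resistance to EGFR inhibitors, had 9, and INSR, the insulin receptor, had 3. ERBB2, ERBB3, ERBB4, FGFR1 and ALK had none, and no peak summit lay within 5 kb of their spans. Among all 20037 protein-coding genes, 18.4% held at least 1 summit, counted by the same rule.

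The share of genes with a peak differed by gene span, so each receptor was read beside genes of its own span class (10 classes of equal size). EGFR, IGF1R, INSR, ERBB4 and ALK fall in the longest class, spans of 152.3 kb or more, where 33.6% of genes held a peak. MET falls in the ninth class (83.5 to 152.3 kb), where 40.5% did, and FGFR1 in the eighth (52.3 to 83.5 kb), where 32.4% did. AXL and ERBB2 fall in the seventh (35.3 to 52.3 kb), where 27.9% did, and ERBB3 in the fifth (16.3 to 24.1 kb), where 13.4% did. The 5 receptors without a peak therefore included both the shortest span, ERBB3 at 23.4 kb, and the longest, ERBB4 at 1163 kb. Together they spanned 2013 kb, against 859.5 kb for the 5 with peaks.

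**Figure D1:**
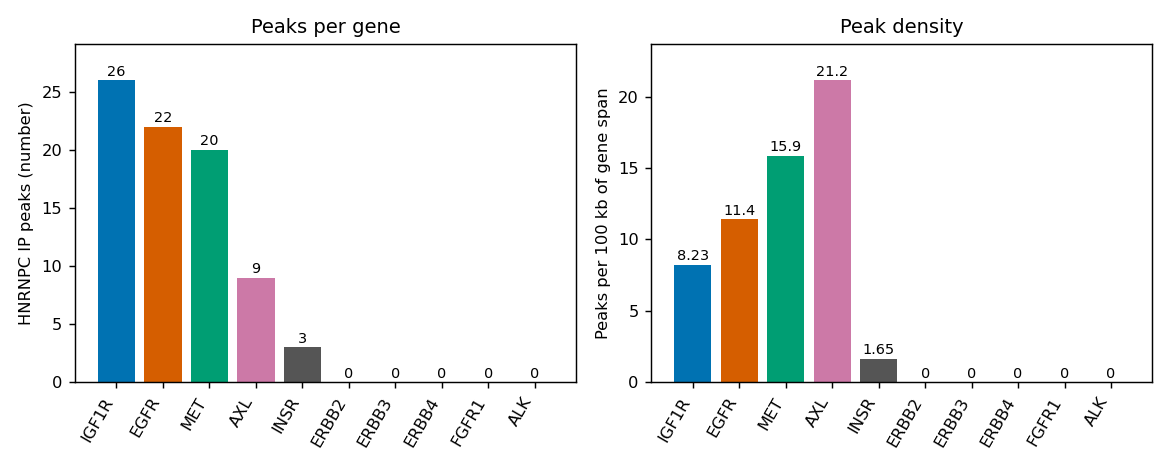
Number of HNRNPC IP peaks in each of the 10 receptor genes (left axis, count from 1 IP library) and the same divided by gene span (right axis, peaks per 100 kb). IGF1R has the most peaks, 26, and AXL, at 21.2 per 100 kb in the full list, falls to 11.8 with q of 0.001 or less and 7.05 with a fold of 4 or more, below MET in both; ERBB2, ERBB3, ERBB4, FGFR1 and ALK are at 0 in both.

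Peaks of 3 receptors began within or reached into the 300-base window around the annotated gene start (250 bases before to 50 after, RefSeq sequence of GRCh38.p14). These windows are shown because the first peak of MET, AXL and IGF1R is among the few peaks whose sequence can be read here. Each is printed 5′ to 3′ on the transcribed strand, the plus strand for all 3, with the bases under the peak in capitals.
MET, chr7:116671946-116672245: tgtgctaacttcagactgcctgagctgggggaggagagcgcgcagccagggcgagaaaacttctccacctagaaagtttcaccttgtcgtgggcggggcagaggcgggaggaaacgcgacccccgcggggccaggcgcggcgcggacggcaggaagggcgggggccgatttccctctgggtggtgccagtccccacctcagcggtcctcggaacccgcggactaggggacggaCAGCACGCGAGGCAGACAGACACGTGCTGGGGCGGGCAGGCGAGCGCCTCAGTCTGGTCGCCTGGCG
AXL, chr19:41218973-41219272: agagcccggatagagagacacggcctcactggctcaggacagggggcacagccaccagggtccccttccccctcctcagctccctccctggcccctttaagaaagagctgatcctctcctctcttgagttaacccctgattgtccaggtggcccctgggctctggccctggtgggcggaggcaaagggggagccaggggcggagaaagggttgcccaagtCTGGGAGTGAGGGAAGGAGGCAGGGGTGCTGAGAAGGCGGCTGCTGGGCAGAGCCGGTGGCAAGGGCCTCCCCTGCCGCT
IGF1R, chr15:98648289-98648588: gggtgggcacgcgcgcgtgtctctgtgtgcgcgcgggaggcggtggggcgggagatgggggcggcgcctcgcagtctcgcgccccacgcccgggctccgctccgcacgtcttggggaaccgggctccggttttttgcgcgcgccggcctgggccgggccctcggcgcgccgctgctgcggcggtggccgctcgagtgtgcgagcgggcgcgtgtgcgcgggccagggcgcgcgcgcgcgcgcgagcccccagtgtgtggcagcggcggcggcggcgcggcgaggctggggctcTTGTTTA

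The peak covered the last 67 bases of the MET window, beginning 17 bases ahead of the annotated span, and the last 80 bases of the AXL window, beginning 30 bases ahead of it. In IGF1R the peak reached only the last 7 bases. The bases under the peak held 73.1% G or C and 10.4% T in MET and 71.2% and 12.5% in AXL. The 7 bases in IGF1R held 14.3% G or C and 71.4% T, but they are too few of that peak's 236 bp to describe it. A run of 5 T (TTTTT, read as U in the RNA) and the letters GGACT, one form of the m6A consensus, were searched on the transcribed strand, and AAAAA and AGTCC were searched for the other strand. No motif of either kind lay under the peak in any of the 3 windows, though the 7 bases in IGF1R leave little room for one. In the IGF1R window TTTTT was found at overlapping positions from base -121, and in the MET window GGACT was found at base -32 on the transcribed strand and on the other strand at base -63, counted from the annotated start as base 0. Of all 35116 windows in the table, 24.9% held TTTTT on the transcribed strand and 24.5% on the other, and 25.3% held GGACT on the transcribed strand and 25.3% on the other. The matches in the IGF1R and MET windows all lie before the annotated start, outside the spans of these genes. They describe letters in the window only. The 8 receptors other than ERBB3 and FGFR1 had 11 windows in the table, of which these 3 were overlapped, whereas 7.05% of all windows of protein-coding genes were overlapped by a peak.

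IGF1R carried the highest fold of the group. The gene (NCBI gene 3480) lies on chromosome 15 at 98648539 to 98964530, and its strongest peak, at 98911223 to 98911479, reached a fold of 17.4 with −log10 q at 29.6. By fold it was number 91 of 23148, with 0.393% of the list at least as high. The next folds were 13.1 at 98896740 to 98896971 and 10.7 at 98929558 to 98929679. These 3 summits lay 262.85, 248.34 and 281.07 kb from the start, in the last of 4 equal parts of the span. The widest IGF1R peak, 701 bp at 98648980 to 98649680 with a fold of 8.29, lay instead close to the start, beside the outermost one at 98648582 to 98648817 (fold 7.60). The peak nearest the other end, at 98958895 to 98958951, had the lowest fold of the gene, 3.44.

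The IGF1R peaks fell into groups along the gene. There were 2 in the first kb and 3 from 59.36 to 85.28 kb, then none for 140.55 kb, and the remaining 21 began at 225.83 kb. The median distance between neighbouring summits was 2.58 kb, and 12 of 25 neighbours were under 2 kb apart. The summits of both peaks near the start also lie within IRAIN, a long noncoding RNA gene that overlaps the IGF1R start. The list gives no strand, so IGF1R and IRAIN RNA cannot be told apart there.

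EGFR had the second most peaks in the full list and the narrowest among the 3 genes with 20 or more. Its rank depends on the weaker peaks: with q of 0.001 or less EGFR kept 16, against 19 in MET and 22 in IGF1R. The gene (NCBI gene 1956) lies on chromosome 7 at 55019017 to 55211628, a span of 192.6 kb. The peak at 55157662 to 55157783 was its strongest, with a fold of 13.04, −log10 q of 19.6 and rank 574 by fold. The folds next in order were 11.1 at 55181309 to 55181478 and 10.6 at 55165258 to 55165384. The summit of the first of these also lies in EGFR-AS1, an antisense long noncoding RNA gene, so its source strand is unknown. The widest EGFR peak, 415 bp at 55205423 to 55205837 with a fold of 5.82, was also the one nearest the end, 6.0 kb before it. Widths had a median of 106 bp, against 152 bp in MET and 188.5 bp in IGF1R.

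A single EGFR peak lay near the start, at 55019202 to 55019258 with its summit 229 bases in and a fold of 5.42. The next summit followed 123.18 kb later, and the other 21 summits lay from 123.41 to 186.62 kb. Over the gene the median distance between neighbouring summits was 1.57 kb, and 11 of 21 distances were under 2 kb. EGFR thus had 1 isolated peak at the beginning and a dense run toward the end.

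MET had the highest median fold of the group. The gene (NCBI gene 4233) lies on chromosome 7 at 116672196 to 116798377, a span of 126.2 kb, and the median fold of its 20 peaks was 8.67, against 6.48 in IGF1R, 6.35 in EGFR and 5.76 over the whole list. The strongest was also the widest of all 80, 1229 bp at 116699049 to 116700277, with a fold of 16.7, a −log10 q of 25.6 and rank 112 by fold. A fold of 14.5 was listed at 116731655 to 116731886, and 13.5 at the peak over the start, 116672179 to 116672589, whose 5′ part is printed above. Of the 20 MET peaks, 11 had a fold of 8 or more, as did 7 of 22 in EGFR, 7 of 26 in IGF1R, 1 of 9 in AXL and none of 3 in INSR. In the whole list 18.7% of peaks reached that fold.

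MET peaks were spread more evenly over the gene than those of EGFR and IGF1R. Its largest distance between neighbouring summits was 27.8 kb, from the start peak to the widest one, and 2, 2, 7 and 9 summits lay in 4 successive equal parts of the span. The last summit, at 116796064 to 116796318 with a fold of 4.48, was 2.20 kb from the end. The start peak lies also within the span of COMETT, a long noncoding RNA gene beside MET, and its strand is unknown.

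AXL was the shortest gene with peaks. It lies on chromosome 19 at 41219223 to 41261766 (NCBI gene 558), a span of 42.5 kb, and had 21.2 peaks per 100 kb. MET had 15.85, EGFR 11.4, IGF1R 8.23 and INSR 1.65, beside a median of 6.84 over the 3685 protein-coding genes with a peak. This order depends on the weaker peaks: with q of 0.001 or less AXL kept 5 peaks (11.8 per 100 kb, MET 15.1), and with a fold of 4 or more it kept 3 (7.05, against 14.3 in MET, 11.4 in EGFR and 7.60 in IGF1R). By bases, peaks covered 3.62% of the MET span and 3.43% of the AXL span. The peak over the AXL start, at 41219193 to 41219475, stood apart from the others of the gene. Its fold was 13.4, its −log10 q 18.45 and its width 283 bp, the largest in the gene, and its summit lay 43 bases in. The remaining 8 had folds from 3.51 to 6.58, led by 6.58 at 41230965 to 41231245 and 5.15 at 41243601 to 41243733. The last, at 41252841 to 41252976 with a fold of 3.597, lay 8.91 kb from the end. A further peak with a fold of 3.13, 2669 bases beyond the AXL span, lay in the neighbouring gene HNRNPUL1 and was not counted.

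INSR peaks were few, scattered and low. The gene (NCBI gene 3643) lies on chromosome 19 at 7112265 to 7294414 on the minus strand. From its start onward the peaks were at 7267447 to 7267543 with a fold of 4.79, at 7184386 to 7184603 with 5.27, and at 7132214 to 7132285 with 3.82. Distances between summits were 82.96 and 52.4 kb, and none lay near the start. INSR ranked 2874 of 3685 protein-coding genes by its best fold, whereas IGF1R, its closest relative in the group, ranked 61. MET ranked 74, AXL 265 and EGFR 279.

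**Figure D2:**
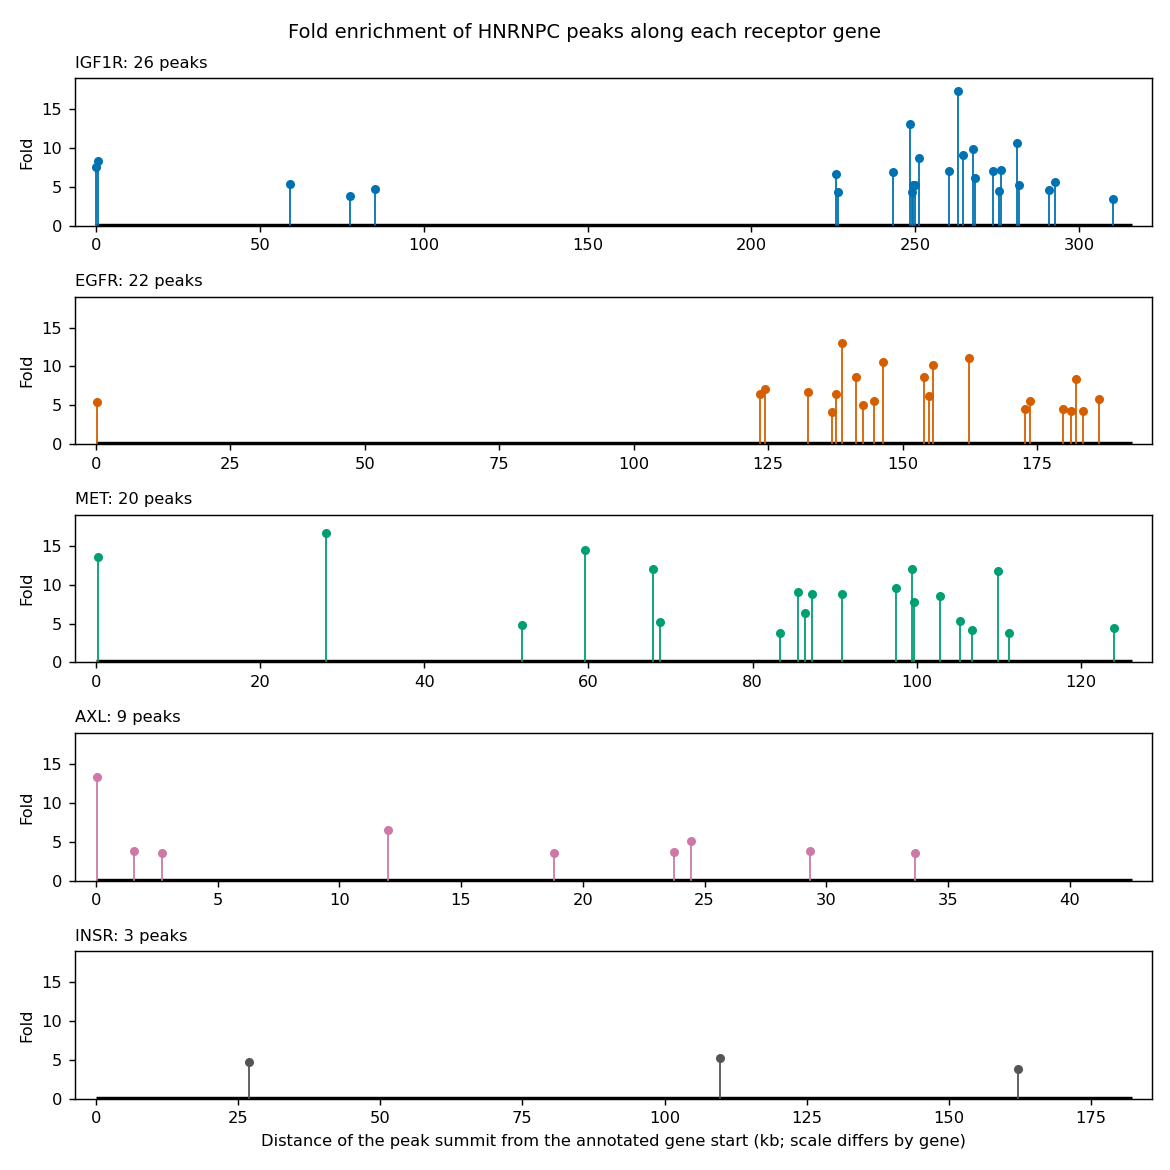
Each panel shows 1 receptor gene, with the distance of the peak summit from the annotated start in kb on the horizontal axis (its length differs by gene) and the fold enrichment of each peak on the vertical axis; the black bar is the gene span. IGF1R and EGFR have gaps of 140.55 and 123.18 kb without a summit, while MET peaks are spread along the span and the 3 INSR peaks are isolated.

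Peak number set 3 receptors high among the genes of their span class, most of which had no peak. In the longest class 35 of 2003 genes (1.75%) had at least as many peaks as IGF1R, itself included, and 57 (2.85%) had at least as many as EGFR. In the class of MET 67 of 2004 genes (3.34%) had 20 or more, and in that of AXL 112 of 2003 (5.59%) had 9 or more. For INSR the share was 23.9%. These shares are of all genes of a class. Any peak was held by 33.6% of genes in the longest class, 40.5% in that of MET and 27.9% in that of AXL. The longest class is also broad, with spans from 152.3 to 2474 kb. Over all protein-coding genes 0.848% had 20 or more peaks. As counts, 26, 22 and 20 have exact 95% Poisson intervals of 17.0 to 38.1, 13.8 to 33.3 and 12.2 to 30.9, which overlap. That of AXL (4.12 to 17.1) overlapped all 3, that of IGF1R only barely, and INSR (0.62 to 8.77) overlapped AXL. These intervals cover counting error only and treat neighbouring peaks as independent.

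The receptor peaks were compared in fold with the whole list. The 80 peaks had a median fold of 6.23 with quartiles 4.53 and 8.80, against 5.76 with quartiles 4.79 and 7.22 for all 23148 peaks. A fold of 12 or more was listed for 9 of the 80, of which 5 were in MET, 2 in IGF1R, 1 in EGFR and 1 in AXL. In the list as a whole 4.16% of peaks reached 12. The median of the best folds of the 5 receptors was 13.4, against 7.04 over all protein-coding genes with a peak. Genes with more peaks have more chances of a high one, so this median goes with the peak numbers above.

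**Figure D3:**
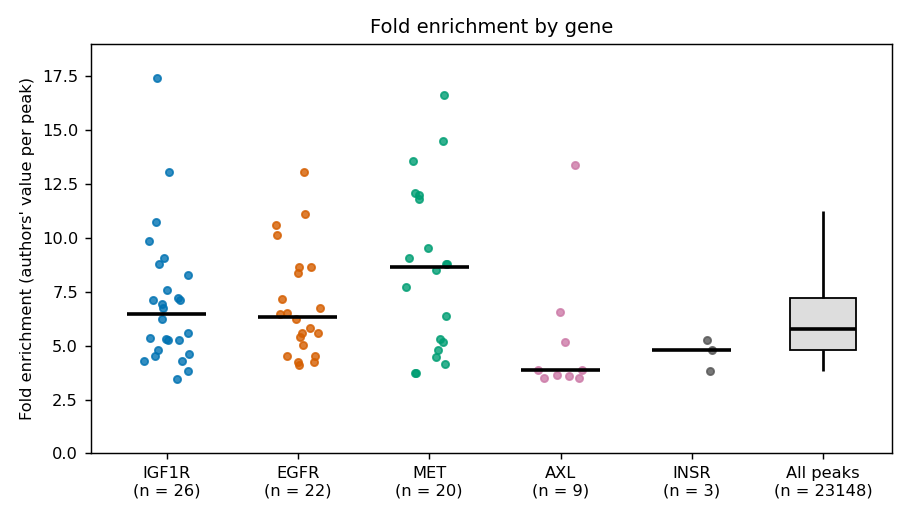
Fold enrichment of every peak of the 5 receptors (1 point per peak, horizontal bar for the median) and of all 23148 peaks (box for the quartiles, whiskers from the 5th to the 95th percentile). MET has the highest median, 8.67, and AXL the lowest, 3.86, with its start peak at 13.4 far above the other 8.

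Fold is a ratio, so the numbers of fragments behind it were worked out for each peak. Fold and p in the list fit the formulas of MACS2. In these, 1 is added to the IP level at the summit and to a control level before division, and p is the Poisson tail at that control level. Which sample served as the control is not given in the sources used here. With each IP fragment worth 0.535, a whole number of IP fragments solved both values for all 23148 peaks, and for each of the 80 receptor peaks the solution was the only one. The numbers of fragments and the control levels given here are inferred in this way and were not read from the libraries. A control level is the value that the formulas require, and control coverage at the summit itself was not seen. In the whole list the median was 15 IP fragments at a summit (quartiles 10 and 21), and the control level stood at its lowest value, 0.1034, in 47.5% of peaks.

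Among the 5 receptors AXL had the highest median of IP fragments and of control level. At its 9 summits the IP fragments numbered 25 to 46 with a median of 29, and the control level was 3 or more at 6 of them, as it was in 6.21% of all peaks. The peak at 41242901 to 41243036 had 46 IP fragments (exact 95% Poisson interval 33.7 to 61.4), the most of any receptor peak and a number reached by 1.81% of the list, yet its fold was 3.66 over a control level of 6. This peak was picked for its number of fragments, and the interval does not allow for that choice. The AXL start peak had 29 fragments over a control level of 0.235. Thus 7 of the other 8 AXL summits had at least 27 IP fragments, and their low folds went with control levels of 2 to 6.

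In INSR low folds went with few IP fragments. Its 3 summits had 8, 9 and 6, all at the lowest control level. EGFR had 11 to 25 fragments with a median of 16, and its 3 highest folds came from 25, 21 and 20 fragments at the lowest control level. IGF1R ranged widely, from 6 to 38 with a median of 25.5, and its strongest peak had 34 (23.55 to 47.5) over the lowest control level. MET had 8 to 40 with a median of 27.5, and its widest and strongest peak had 38 (26.9 to 52.2) over a control level of 0.282. The intervals for IGF1R and MET are of peaks picked for the highest fold and do not allow for that choice. Of the 80 peaks 43 (53.8%) had a control level of 1 or more, against 30.6% of all peaks. Among listed peaks, AXL was lowest by median fold and highest by median fragments (29, against 27.5 in MET). Only peaks with q up to 0.00998 are listed, so a summit over a higher control level needs more fragments to be listed. In AXL 25 fragments over a control level of 3 gave a −log10 q of 2.34, while in INSR 6 fragments over 0.1034 gave 2.24. The order by fragments is therefore not a measure of IP coverage of these RNAs.

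**Figure D4:**
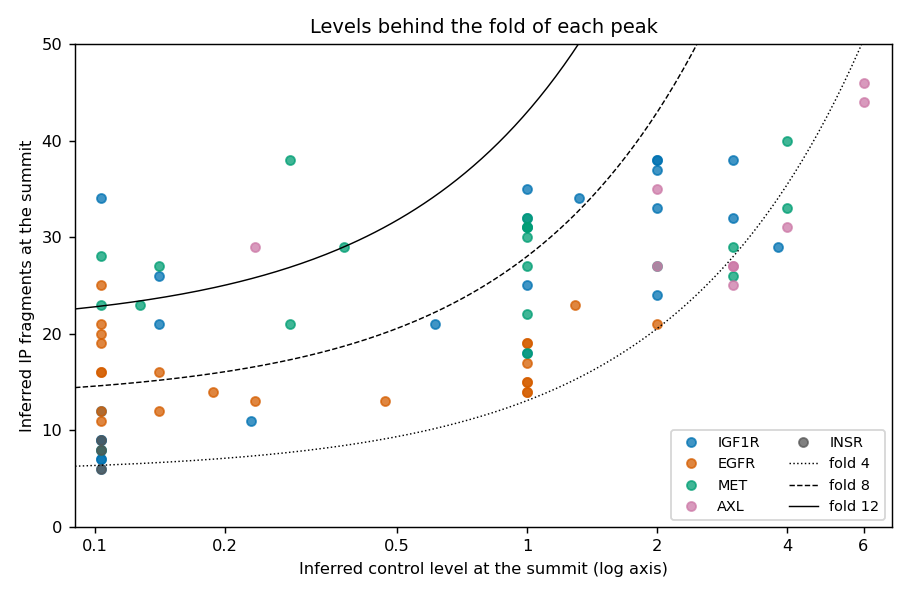
Inferred IP fragments (vertical axis) against inferred control level (horizontal log axis) at the summit of each of the 80 receptor peaks, with black lines of equal fold at 4, 8 and 12. Of the 9 AXL points 8 lie at the upper right, over control levels of 2 to 6, and the start peak lies to the left at 0.235; INSR points at the lower left with 6 to 9 fragments over 0.1034.

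Near the annotated start, 4 of the 5 receptors with peaks had a summit within the first 1 kb, namely IGF1R with 2 and EGFR, MET and AXL with 1 each. This is common in the list: of 3075 protein-coding genes with a peak and a known strand, 51.7% had such a summit. The folds of these start peaks were 13.5 in MET, 13.4 in AXL, 8.29 and 7.60 in IGF1R and 5.42 in EGFR. Toward the other end, the last summit lay 2.20 kb from the annotated end in MET, 5.58 kb in IGF1R, 6.0 kb in EGFR, 8.91 kb in AXL and 19.95 kb in INSR. In the 4 receptors of 100 kb or more, 42 of 71 summits (59.2%) lay in the last of 4 equal parts of the span and 18 (25.4%) in the third, against 39.2% and 28.0% of 8783 peaks in all protein-coding genes of that length with known strand. The first held 8 and the second 3. By gene the last part held 19 of 26 summits in IGF1R, 13 of 22 in EGFR, 9 of 20 in MET and 1 of 3 in INSR. The pooled share thus rests mostly on IGF1R and EGFR, whose summits lie in dense runs. Exons, introns and UTRs were not analysed here, so whether gaps follow introns was not tested.

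The ERBB family was split by gene. EGFR had 22 peaks, while ERBB2, the family member without a known ligand, ERBB3, a neuregulin receptor with weak kinase activity of its own, and ERBB4, another neuregulin receptor, had none. ERBB2 spans chromosome 17 at 39688094 to 39728658, ERBB3 spans chromosome 12 at 56080108 to 56103505, and ERBB4 spans chromosome 2 at 211375717 to 212538802. FGFR1, a fibroblast growth factor receptor on chromosome 8 at 38411143 to 38468635, and ALK, which is activated by gene fusion in some lung cancers, on chromosome 2 at 29192774 to 29921586, had none either. A gene lacks a peak in such a list when its RNA is scarce as well as when it is not enriched, and expression was not measured here.

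Genes that act with the receptors were counted in 4 lists, whose median spans (67.5 to 81.7 kb) lie in the eighth class. In that class 32.4% of genes held a peak, against 18.4% of all protein-coding genes. The genes of each list spread over shorter and longer classes, so neither share is matched to a list by span. Of 15 adaptors and effectors 8 had a peak (53.3%, exact interval 26.6 to 78.7%), and the median of their best folds was 9.57. PTPN11, the tyrosine phosphatase SHP2 that links receptors to RAS, had 16 peaks and a best fold of 20.6. CRKL (16.2 over 4 peaks), CRK (12.8 over 3) and the docking protein gene FRS2 (10.6 over 8) followed. GRB2 and SHC1, the adaptors shared by most of these receptors, had none, nor did GAB1, GAB2, IRS2, PLCG1 and SRC.

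Of 20 negative regulators and endocytic genes 11 had a peak (55%, 31.5 to 76.9%), with a median best fold of 8.78. STAM, part of the complex that sorts ubiquitinated receptors, reached 17.4 over 4 peaks, and the receptor-type phosphatase gene PTPRJ 16.9 over 21. ERRFI1, an inhibitor of EGFR kinase, reached 13.4 over 8 peaks within a span of 14.6 kb, and EPS15, an endocytic adaptor of EGFR, 13.04 over 14. CBL, the ubiquitin ligase for EGFR and MET, had 12 peaks with a best fold of 8.19.

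Of 20 ligand genes 3 had a peak (15%, 3.21 to 37.9%). EREG, the EGFR ligand epiregulin, had 15 peaks in a span of 23.6 kb, or 63.5 per 100 kb, with a best fold of 15.5. FGF2 had 5 peaks up to 6.63, and NRG1, a ligand of ERBB3 and ERBB4, had 4 up to 4.79 over a span of 1135 kb. HGF, IGF1, IGF2 and GAS6, the ligands of MET, IGF1R and AXL, had none. Of the 48 other human receptor tyrosine kinases 5 had a peak (10.4%, 3.47 to 22.7%). These were RYK, a WNT co-receptor with 11 peaks up to 11.6, LMTK2 with 9 up to 9.36, EPHA5 with 1 of 8.67, whose summit lies also in EPHA5-AS1, and NTRK3 and ROR1 with 2 each up to 5.27. Thus 10 of 58 receptor tyrosine kinases carried a peak, 5 of them among the 10 described here. The lists and the 10 receptors are no random sample of genes, and the lists were not matched by span. Their intervals were therefore not read against the shares of other genes. No test of a difference between lists was made. The interval of the ligands overlaps those of the adaptors and negative regulators. That of the other receptor tyrosine kinases lies below both, and no difference is read from this.

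**Figure D5:**
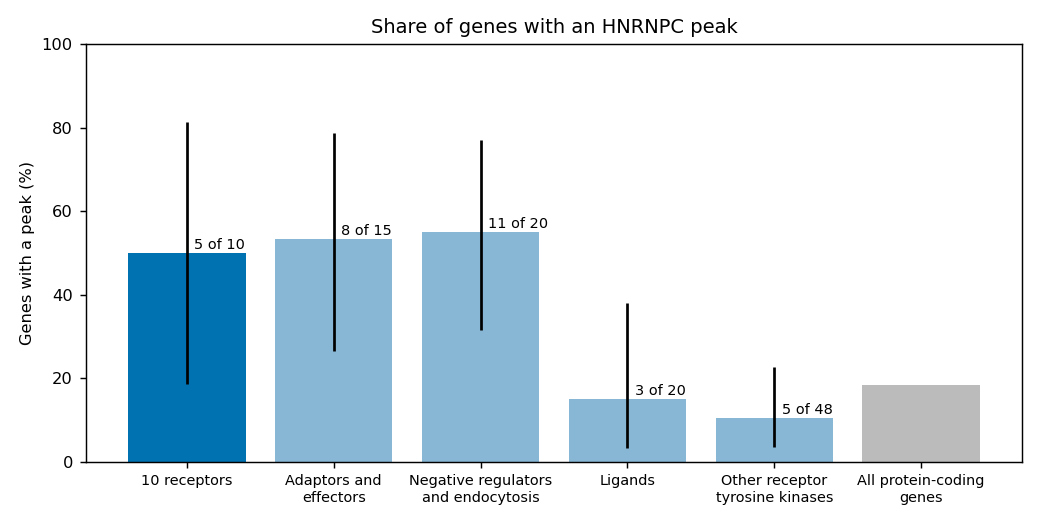
Percent of genes with at least 1 HNRNPC peak in the 10 receptors, in 4 lists of related genes and in all 20037 protein-coding genes. Vertical lines are 95% exact binomial intervals, which cover counting error only. Neither the receptors nor the lists are a random sample, so the intervals are not read against the share of all genes. The 10 receptors (50%), adaptors and effectors (53.3%) and negative regulators (55%) are plotted beside ligands (15%), other receptor tyrosine kinases (10.4%) and all genes (18.4%), and the intervals are wide and overlap between most lists.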

How the data were processed

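RIP-seq peaks of 1 IP library were analysed; values of the input library were not analysed here. Per the submitters' processing notes, the tools were HISAT2, MACS2 and bedtools and the build hg38; versions and settings are not given in the sources used here. The deposited list has 10 columns without a header. They give each peak's position and summit, the authors' score (10 times −log10 q, rounded down), a fold enrichment ratio, and −log10 values of the p-value and q-value. The highest q is 0.00998. Read totals are not given, so depth is unknown beyond the fragments inferred at summits.

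Starts were made 1-based, and summits were matched to spans of 59679 genes in a RefSeq table of GRCh38.p14, protein-coding genes serving as background. A summit in overlapping genes counted for each. Strand came from RefSeq start windows and was known for 8 of the 10 receptors. Position in a gene is measured from the outer end of its span. IP fragments and control levels were solved from fold and p (tolerance 0.002 on −log10 p, widened slightly for large values). At 0.9 and 1.1 times the fitted fragment value 14.99% and 12.4% of the 2861 distinct pairs of fold and p had a solution. The solving and the counting were tested on simulated data. The simulated fold and p came from the same formulas, so the test checks the solving and not whether the formulas fit these libraries. Its control levels did not reach the lowest and highest found here. Members and lists were chosen with earlier results of these data known. In each list up to 4 genes of highest fold are named, or all where 5 or fewer had a peak; GRB2, SHC1 and other genes without a peak, and CBL, were named after their values were seen. In a receptor with over 5 peaks, the 3 highest folds, the widest and the outermost peaks are named; the AXL peak with most fragments was added after its value was seen. Alternatives were stricter q or fold, other overlap rules and leaving out summits in several genes. No paired analysis was possible because there is 1 library per group. The work was done in Python 3.11.15 with scipy 1.17.1, numpy 2.4.6, matplotlib 3.10.9 and pandas 2.3.3.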

Additional observations from a re-analysis of the deposited data

How the results depend on the processing

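Of 90 values under 5 alternatives (18 results), 85 stayed within the limits set, which for counts was 1.5 times. The 85 include the counts of ERBB2, ERBB3, ERBB4, FGFR1 and ALK, which can only stay at 0 where an alternative removes peaks. The 5 that moved were AXL peak counts and the median fold of the receptor peaks. Counts that stayed within the limits also fell. EGFR went from 22 peaks to 16 with q of 0.001 or less, below MET at 19. INSR went from 3 to 2 with the stricter q and with the stricter fold. The number of receptors with a peak was 5 under every alternative. Peaks in all receptors numbered 64 with q of 0.001 or less, 69 with a fold of 4 or more, 76 without summits in any other gene, and 80 under both overlap rules. The median fold of the receptor peaks, 6.23, was 7.03 with q of 0.001 or less and 6.73 with a fold of 4 or more, since both remove the lower peaks by construction, and 5.71 without summits in any other gene, which removes the start peaks of MET and IGF1R and 1 peak of EGFR. AXL kept 5 of its 9 peaks with the stricter q and 3 with the stricter fold, so its density of 21.2 peaks per 100 kb became 11.8 and 7.05, below MET (15.1 and 14.3) in both and below EGFR (11.4) and IGF1R (7.60) in the second. No paired analysis was possible because there is 1 library per group. Depth is unknown, and a gene without a peak may have had too few fragments for one to be listed.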
